A study of Homo sapiens with 10 samples.

Results

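NRF2, encoded by NFE2L2, is the transcription factor that sets the level of a broad antioxidant and detoxification programme. Its partner KEAP1 binds it in the cytoplasm and passes it to a ubiquitin ligase for destruction, and electrophiles or oxidants release it to bind antioxidant response elements near its target genes. Those targets make and recycle glutathione and thioredoxin, supply NADPH, handle haem and iron, and reduce or conjugate reactive aldehydes, quinones and drugs. A549, a human lung adenocarcinoma line, is known for a loss of KEAP1 function and for high expression of NRF2 targets. The 35 genes described here are NRF2 itself, KEAP1 and genes of that programme. Each was read from a probe set that the platform annotation gives to 1 gene, and a gene with several was read from the brightest on average. Of the 35, 33 were measured, out of 18279 genes on the arrays. FTH1 has no probe set that the annotation gives to it alone, and the PIR probe set names another transcript as well, so neither was used.

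Total RNA was measured on 10 Affymetrix arrays, 1 per sample, in 4 groups of human lung cell lines. AD32 4E-BP1 (1 array) is labelled sensitive and was kept in 0.01% DMSO. AD32 (3 arrays) is labelled resistant and was grown in 32 nM discodermolide, a natural product that stabilises microtubules. A549 disco (2 arrays) is A549 given 32 nM discodermolide and labelled senescent, and A549 DMSO (4 arrays) is A549 in 0.01% DMSO, labelled sensitive. The sources used here do not say whether AD32 is 1 clone or what AD32 4E-BP1 carries beyond its name, which is that of a repressor of translation initiation. That line differs from AD32 in both name and drug, and the line, the drug and its lone array cannot be told apart. The labels call the arrays biological replicates without saying how the cultures were separated, so p-values measure the spread between these samples.

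Levels are log2 signals as deposited, and folds are ratios of signal. Tests used limma over all 18279 genes and all 10 arrays, with Benjamini-Hochberg adjustment over all genes, and a gene is called where its adjusted p is under 0.05. Calls, and statements that a gene was not called, are from this fit with all arrays weighted alike, unless an alternative is named. In RNA from whole cultures a lower level in every cell and fewer cells with the transcript cannot be told apart. Every one of the 33 genes lay above the lower quartile of its array on all 10 arrays, the lowest value being 6.29. Among the defining markers, the epithelial keratin gene KRT8 was at 12.67 to 13.73 and KRT18 at 13.03 or more. EPCAM, also epithelial, lay below the lower quartile on all 10 arrays, and the lung factor gene NKX2-1 did so on 8 of 10. Of the markers of other cell types, PTPRC of 5 leukocyte genes, DCN of 5 fibroblast genes and PECAM1 and KDR of 4 endothelial genes were below it on all 10 arrays. Others were not, among them CD68 (leukocyte, 8.34 to 10.71) and COL1A1 (fibroblast, 7.69 to 8.16).

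Some arrays stood apart from others of their group. The mean of 20 G2/M genes was 5.28, 6.26 and 9.70 on AD32 replicates 1, 2 and 3. It was 6.83 on A549 DMSO replicate 1 and 9.92 to 10.06 on the other 3 DMSO arrays. A549 DMSO replicates 3 and 4 were nearly identical, their difference across genes having an SD of 0.16 on the log2 scale against 0.31 for replicates 2 and 3, and both were kept as samples. Where leaving out 1 of these arrays changed a call, the value without it is given.

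Most of the NRF2 genes had a lower mean signal in AD32 than in A549, and the AD32 arrays differed among themselves. AD32 was in discodermolide and A549 DMSO was not, so line and drug cannot be told apart in that comparison. Against A549 DMSO, 28 of 33 genes had a lower mean in AD32, with a median log2 difference of -0.40 where all genes tested had 0.01. The test called 3 genes lower, namely the epoxide hydrolase gene EPHX1, the aldehyde dehydrogenase gene ALDH1A1 and the aldo-keto reductase gene AKR1C1, and called 0 higher. Of all genes 5.72% were called in this comparison, 2.19% lower and 3.52% higher, against 9.09% of the 33, all lower, a share that rests on 3 genes. All 3 AD32 arrays lay below all 4 A549 DMSO arrays for 10 of the 33 genes (30.3%), against 6.48% of all genes, and lay above them for 0 of 33, against 8.90%. Before adjustment, p was under 0.05 for 16 of the 33 genes, 15 of them lower, against 19.7% of all genes.

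**Figure D1:**
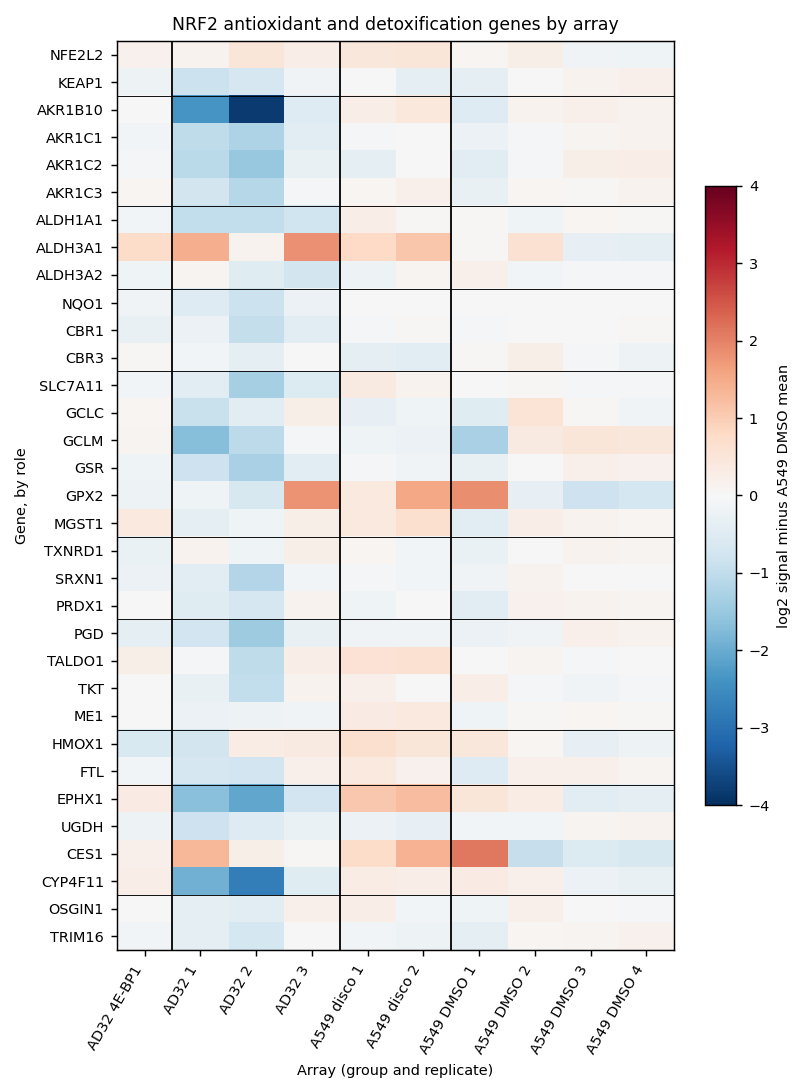
Each cell is a gene's log2 signal on 1 array minus its mean over the 4 A549 DMSO arrays, with genes in rows grouped by role and arrays in columns grouped by sample type. AD32 replicates 1 and 2 hold most of the low values, the lowest being AKR1B10, at 8.39 on AD32 replicate 2 against a DMSO mean of 12.23, while AD32 replicate 3 and AD32 4E-BP1 lie nearer to A549.

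The regulators themselves were not called in any comparison with the arrays weighted alike. With array weights, limma called NFE2L2 higher than in A549 DMSO, both in AD32 (adjusted p = 0.0477) and in A549 disco (0.00509). KEAP1 was called lower in AD32 than in A549 DMSO (limma adjusted p = 0.0102). Those weights called 23.1% of all genes for AD32 and 25% for A549 disco. NFE2L2 was at 9.50 in AD32 4E-BP1, at 9.47, 9.80 and 9.60 in AD32, at 9.77 and 9.79 in A549 disco, and at 9.41, 9.54, 9.18 and 9.14 in A549 DMSO. AD32 overlapped A549 DMSO, with a mean of 9.62 ± 0.17 (SD, n = 3) against 9.32 ± 0.19 (SD, n = 4) and a log2 difference of 0.30 (SE 0.14, limma adjusted p = 0.288). Both treated A549 arrays lay above all DMSO arrays, with a log2 difference of 0.46 that did not pass (SE 0.16, limma adjusted p = 0.33). KEAP1, the adaptor that targets NRF2 for degradation, was at 9.17 in AD32 4E-BP1, at 8.51, 8.71 and 9.24 in AD32, at 9.38 and 8.99 in A549 disco, and at 9.02, 9.40, 9.52 and 9.59 in A549 DMSO. AD32 replicates 1 and 2 were the lowest of the 10 arrays, and replicate 3 lay among the A549 arrays. The AD32 mean was 8.82 ± 0.38 (SD, n = 3) against 9.38 ± 0.26 (SD, n = 4), a log2 difference of -0.56 (SE 0.21, limma adjusted p = 0.185), which was called without AD32 replicate 3 (log2 difference -0.77, adjusted p = 0.0444).

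ALDH1A1 oxidises retinal and other aldehydes and was the most even of the 3 called genes across the AD32 arrays. Its level was 13.37 in AD32 4E-BP1, 12.49, 12.49 and 12.69 in AD32, 13.77 and 13.55 in A549 disco, and 13.55, 13.33, 13.56 and 13.54 in A549 DMSO. The AD32 arrays spanned 0.21 and lay below every other array. ALDH1A1 fell 1.92-fold in AD32 against A549 DMSO (log2 difference -0.94, SE 0.12, limma adjusted p = 0.00352). This call held under all alternatives run, with adjusted p between 0.00068 and 0.0237. Against A549 disco it fell 2.15-fold (log2 difference -1.10, SE 0.15, limma adjusted p = 0.00496), and that call ended without A549 disco replicate 1 (adjusted p = 0.073).

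EPHX1 encodes microsomal epoxide hydrolase, which opens reactive epoxides to diols. It was at 10.39 in AD32 4E-BP1, at 8.41, 7.99 and 9.29 in AD32, at 11.15 and 11.29 in A549 disco, and at 10.56, 10.38, 9.66 and 9.67 in A549 DMSO. All AD32 arrays were below all others, and both treated A549 arrays were above all others. Against A549 DMSO, EPHX1 fell 2.83-fold in AD32 (log2 difference -1.50, SE 0.33, limma adjusted p = 0.0317), and against A549 disco 6.29-fold (log2 difference -2.65, SE 0.40, limma adjusted p = 0.00809). The difference of A549 disco from A549 DMSO, 1.15 on the log2 scale, did not pass (SE 0.38, limma adjusted p = 0.298).

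AKR1C1 is a member of the aldo-keto reductases, which reduce carbonyls with NADPH, and it also inactivates progesterone. It was at 13.29 in AD32 4E-BP1, at 12.36, 12.16 and 12.95 in AD32, at 13.30 and 13.42 in A549 disco, and at 13.16, 13.35, 13.51 and 13.53 in A549 DMSO. All AD32 arrays were below all others. AKR1C1 fell 1.86-fold against A549 DMSO (log2 difference -0.90, SE 0.19, limma adjusted p = 0.0299), and against A549 disco its difference of -0.87 did not pass (SE 0.23, limma adjusted p = 0.084). That difference was called by limma without AD32 replicate 3 (adjusted p = 0.0105), with the mean of both probe sets (0.0147) and with the replicate number as a block (0.0497). A dimmer probe set of the same gene (7.83 to 7.97 on the DMSO arrays) had a difference of -0.33 from A549 DMSO. AKR1C1, AKR1C2 and AKR1C3 are close paralogues, and how far each probe set is specific to 1 of them was not tested.

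The AKR1C1 and EPHX1 calls against A549 DMSO did not hold when single arrays were left out. By limma, both ended without AD32 replicate 1 or 2 (adjusted p from 0.112 to 0.123), without A549 DMSO replicate 2, 3 or 4 (0.0534 to 0.0961) and without either A549 disco array (0.0579 and 0.0617). EPHX1 against A549 disco ended without either disco array (adjusted p = 0.0738 and 0.0954).

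The 250 bases before the transcription start of these 3 genes are shown because the 3 were called, and those of GPX2, CYP4F11 and GCLM because they are among the 10 genes that differed most between AD32 arrays and hold the core of the antioxidant response element. That core was searched as TGACNNNGC on both strands, with no other motif searched, and a match is printed in capitals. Sequences are from RefSeq on GRCh38.p14, in the direction of the gene. For EPHX1, which has 3 windows, and CYP4F11, which has 2, the window with a match is shown.
AKR1C1, chr10:4963165-4963414, plus strand: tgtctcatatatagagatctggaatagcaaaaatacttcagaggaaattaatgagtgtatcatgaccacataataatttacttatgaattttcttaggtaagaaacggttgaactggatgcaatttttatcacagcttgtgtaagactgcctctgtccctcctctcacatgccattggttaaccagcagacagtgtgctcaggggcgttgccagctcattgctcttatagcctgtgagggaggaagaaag
ALDH1A1, chr9:72953054-72953303, minus strand: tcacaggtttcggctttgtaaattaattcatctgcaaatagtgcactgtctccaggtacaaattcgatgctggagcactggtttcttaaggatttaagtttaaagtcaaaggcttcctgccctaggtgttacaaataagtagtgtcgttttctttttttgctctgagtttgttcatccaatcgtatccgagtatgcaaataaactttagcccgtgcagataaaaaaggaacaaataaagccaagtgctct
EPHX1, chr1:225825104-225825353, plus strand: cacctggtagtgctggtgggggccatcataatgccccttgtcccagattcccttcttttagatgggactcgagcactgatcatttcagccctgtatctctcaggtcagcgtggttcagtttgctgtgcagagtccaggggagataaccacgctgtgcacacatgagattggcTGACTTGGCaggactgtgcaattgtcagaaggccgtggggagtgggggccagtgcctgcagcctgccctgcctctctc
GPX2, chr14:64942746-64942995, minus strand: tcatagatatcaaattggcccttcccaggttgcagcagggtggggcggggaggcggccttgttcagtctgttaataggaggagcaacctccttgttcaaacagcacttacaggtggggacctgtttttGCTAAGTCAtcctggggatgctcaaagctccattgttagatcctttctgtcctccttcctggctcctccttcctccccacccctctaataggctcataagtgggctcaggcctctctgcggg
CYP4F11, chr19:15934868-15935117, minus strand: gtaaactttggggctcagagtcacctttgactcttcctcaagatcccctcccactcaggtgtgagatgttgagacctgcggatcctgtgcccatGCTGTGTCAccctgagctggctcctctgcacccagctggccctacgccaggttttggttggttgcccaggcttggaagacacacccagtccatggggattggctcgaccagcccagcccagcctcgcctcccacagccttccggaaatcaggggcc
GCLM, chr1:93909431-93909680, minus strand: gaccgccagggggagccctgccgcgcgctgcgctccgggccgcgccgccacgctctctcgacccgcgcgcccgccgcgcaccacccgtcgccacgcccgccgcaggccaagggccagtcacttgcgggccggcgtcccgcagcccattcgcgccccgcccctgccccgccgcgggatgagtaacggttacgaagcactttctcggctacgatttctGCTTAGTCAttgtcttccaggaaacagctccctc

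The match begins at position -78 from the start in EPHX1, where it reads TGACTTGGC along the gene. On the opposite strand the match reads TGACTTAGC at -122 in GPX2, TGACACAGC at -156 in CYP4F11 and TGACTAAGC at -34 in GCLM. The AKR1C1 and ALDH1A1 windows hold no match, which says only that these letters are not in this stretch. Counting windows of 300 bases that run to 50 bases past the start, 11 of the 26 listed genes with a window held a match in at least 1 window (42.3%), against 16.1% of 27305 genes. By window the shares were 12 of 36 (33.3%) and 13.3% of 35116. These are counts of letters and were not tested.

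The other aldo-keto reductases varied widely within AD32. AKR1B10, which reduces retinal and lipid aldehydes, was at 12.22 in AD32 4E-BP1, at 9.86, 8.39 and 11.71 in AD32, at 12.51 and 12.65 in A549 disco, and at 11.71, 12.37, 12.44 and 12.38 in A549 DMSO. AD32 replicate 3 met the lowest A549 DMSO array, and replicates 1 and 2 were far below every A549 array. The mean difference of AKR1B10 from A549 DMSO was -2.24 (4.72-fold lower, SE 0.62, limma adjusted p = 0.0747), and without AD32 replicate 3 it was -3.10 (8.57-fold lower, adjusted p = 0.00186). AKR1C2 was at 12.77 in AD32 4E-BP1, at 11.76, 11.31 and 12.54 in AD32, at 12.48 and 12.84 in A549 disco, and at 12.42, 12.77, 13.06 and 13.11 in A549 DMSO. It showed the same order within AD32, with replicate 3 among the A549 arrays, and its difference from A549 DMSO was -0.97 (SE 0.29, limma adjusted p = 0.093). AKR1C2 was called lower without AD32 replicate 3 (adjusted p = 0.0113) or without A549 DMSO replicate 1 (0.0412). For AKR1C3, which makes testosterone from androstenedione, the AD32 mean was 12.51 ± 0.54 (SD, n = 3) against 13.17 ± 0.20 (SD, n = 4), and it too was called without AD32 replicate 3 (limma adjusted p = 0.0135; 0.0204 against A549 disco).

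ALDH3A1, an aldehyde dehydrogenase of cornea and of some tumours, ran the other way. It was at 11.21 in AD32 4E-BP1, at 11.93, 10.62 and 12.30 in AD32, at 11.28 and 11.58 in A549 disco, and at 10.53, 11.08, 10.16 and 10.13 in A549 DMSO. AD32 replicates 1 and 3 were the highest arrays of all, replicate 2 lay among the DMSO arrays, and both treated A549 arrays were above all DMSO arrays. The AD32 mean was 2.20-fold that of A549 DMSO (log2 difference 1.14, SE 0.39, limma adjusted p = 0.138), and the gene was called higher without AD32 replicate 2 (3.11-fold, adjusted p = 0.0249). ALDH3A2, the fatty aldehyde dehydrogenase, had an AD32 mean of 9.92 ± 0.43 (SD, n = 3) against 10.28 ± 0.15 (SD, n = 4) and was not called.

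**Figure D2:**
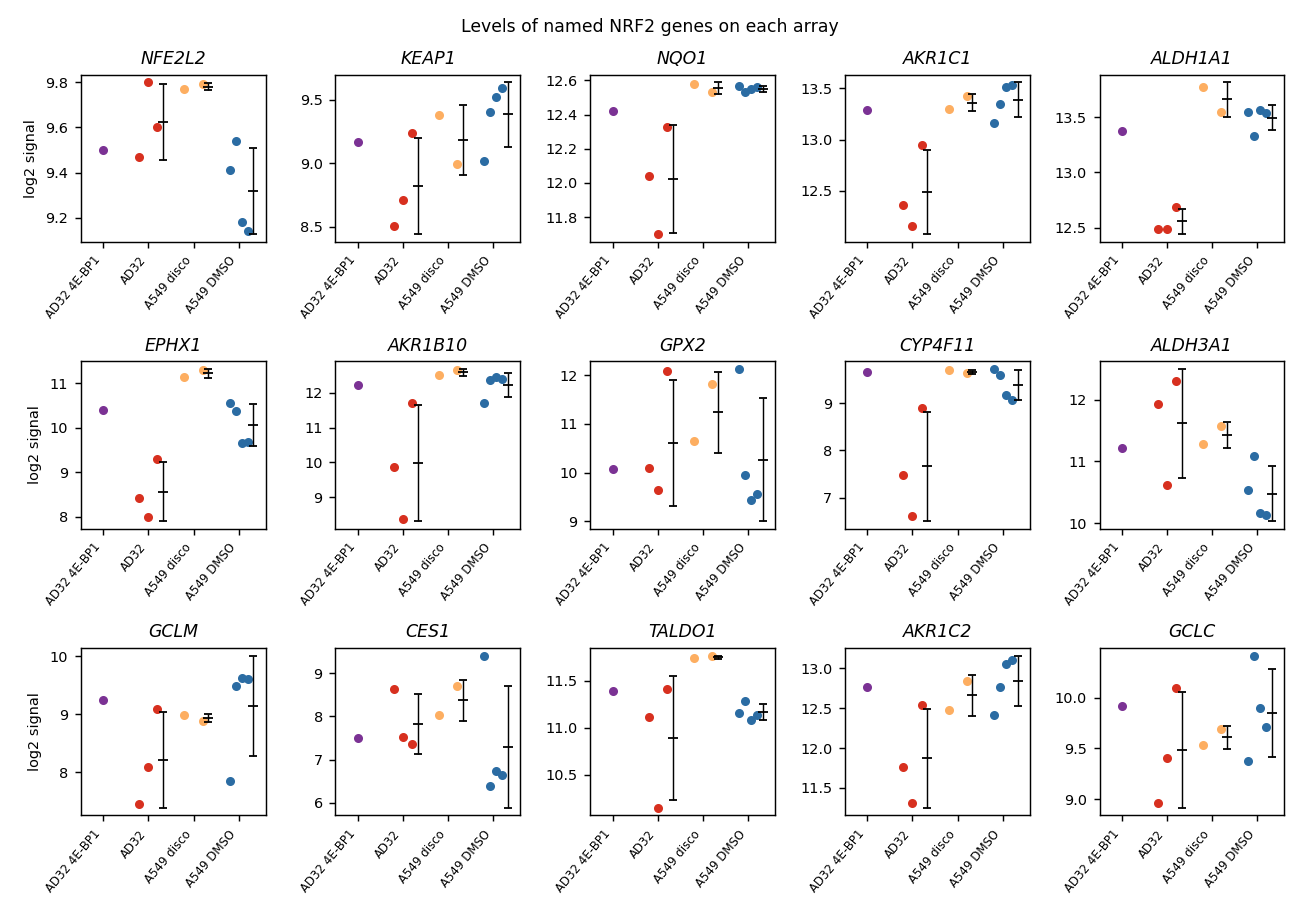
Log2 signal on each array for the 15 genes given in full, in groups from AD32 4E-BP1 on the left to A549 DMSO on the right, with points for arrays and bars for the mean ± SD of groups with more than 1 array. ALDH1A1 separates AD32 (12.49 to 12.69) from every other array, whereas AKR1B10 (8.39 to 11.71) and CYP4F11 (6.61 to 8.90) spread widely within AD32.

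Among the quinone and carbonyl reductases, NQO1, a standard readout of NRF2 activity that reduces quinones without radical intermediates, was tightly held in A549. It was at 12.42 in AD32 4E-BP1, at 12.04, 11.70 and 12.33 in AD32, at 12.58 and 12.53 in A549 disco, and at 12.57, 12.53, 12.55 and 12.56 in A549 DMSO. All AD32 arrays lay below every other array. The mean difference from A549 DMSO was -0.53 (1.44-fold lower, SE 0.15, limma adjusted p = 0.0795), and from A549 disco -0.54 (SE 0.18, adjusted p = 0.167). Both were called without AD32 replicate 3 (adjusted p = 0.0183 and 0.0443). CBR1, a carbonyl reductase, had an AD32 mean of 8.51 ± 0.37 (SD, n = 3) against 9.05 ± 0.05 (SD, n = 4), with all AD32 arrays below all DMSO arrays and no call (limma adjusted p = 0.108). CBR3, its close relative, overlapped between AD32 and A549 DMSO and lay lower on both A549 disco arrays than on all A549 DMSO arrays, a log2 difference of -0.38 that did not pass (SE 0.17, limma adjusted p = 0.458).

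Among the glutathione genes, SLC7A11, the cystine importer, and GSR, which regenerates reduced glutathione, had all AD32 arrays below all A549 arrays. The mean of SLC7A11 was 10.12 ± 0.48 (SD, n = 3) in AD32 against 10.90 ± 0.04 (SD, n = 4) in A549 DMSO (log2 difference -0.78, SE 0.20, limma adjusted p = 0.0573). The mean of GSR was 11.57 ± 0.44 (SD, n = 3) against 12.42 ± 0.23 (SD, n = 4) (log2 difference -0.86, SE 0.21, limma adjusted p = 0.0501). Both were called without AD32 replicate 3 (adjusted p = 0.0395 and 0.0116), and GSR also without A549 DMSO replicate 1 (0.0226).

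The 2 subunits of glutamate-cysteine ligase, which makes the first bond of glutathione, overlapped between the lines. GCLM, the modifier subunit, was at 9.25 in AD32 4E-BP1, at 7.45, 8.10 and 9.09 in AD32, at 8.98 and 8.89 in A549 disco, and at 7.85, 9.49, 9.63 and 9.60 in A549 DMSO. The low arrays were AD32 replicates 1 and 2 and A549 DMSO replicate 1, which were also arrays with a low G2/M mean, but the treated A549 arrays, with G2/M means of 6.67 and 6.87, were not as low. The part of these differences in the GCLM result was not tested. GCLM was 1.90-fold lower in AD32 (log2 difference -0.93, SE 0.49, limma adjusted p = 0.357) and 2.57-fold lower without A549 DMSO replicate 1 (adjusted p = 0.0385). GCLC, the catalytic subunit, was at 9.92 in AD32 4E-BP1, at 8.96, 9.40 and 10.09 in AD32, at 9.53 and 9.69 in A549 disco, and at 9.38, 10.41, 9.90 and 9.71 in A549 DMSO, with no call.

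GPX2, an epithelial glutathione peroxidase, was split within groups. It was at 10.08 in AD32 4E-BP1, at 10.10, 9.64 and 12.08 in AD32, at 10.65 and 11.83 in A549 disco, and at 12.13, 9.95, 9.43 and 9.56 in A549 DMSO. The high arrays were AD32 replicate 3, A549 disco replicate 2 and A549 DMSO replicate 1, so the groups overlapped and no comparison was called (limma adjusted p = 0.888 for AD32 against A549 DMSO). MGST1, a membrane glutathione transferase, overlapped between AD32 and A549 DMSO, with means of 10.50 ± 0.32 (SD, n = 3) and 10.60 ± 0.32 (SD, n = 4).

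None of the 3 thioredoxin genes was called in AD32 against A549 DMSO. TXNRD1, thioredoxin reductase, averaged 12.61 ± 0.21 (SD, n = 3) in AD32 and 12.54 ± 0.19 (SD, n = 4) in A549 DMSO. SRXN1, which repairs oxidised peroxiredoxins, and PRDX1, a peroxiredoxin, had lower AD32 means by 0.56 and 0.33 in log2 units, both with overlapping arrays and neither called (limma adjusted p = 0.202 and 0.494). SRXN1 was called without AD32 replicate 3 (adjusted p = 0.0408).

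In the NADPH group, PGD, an oxidative enzyme of the pentose phosphate pathway, lay lower on all AD32 arrays than on all A549 arrays. Its AD32 mean was 12.05 ± 0.57 (SD, n = 3) against 12.89 ± 0.20 (SD, n = 4), a log2 difference of -0.84 (SE 0.24, limma adjusted p = 0.0853) that was called without AD32 replicate 3 (adjusted p = 0.0132). TALDO1, transaldolase of the same pathway, was at 11.39 in AD32 4E-BP1, at 11.11, 10.15 and 11.41 in AD32, at 11.74 and 11.76 in A549 disco, and at 11.16, 11.28, 11.08 and 11.14 in A549 DMSO. One AD32 array, replicate 2, was low, and the treated A549 arrays were the highest of all. TKT, transketolase, had an AD32 mean of 11.07 ± 0.56 (SD, n = 3) against 11.45 ± 0.19 (SD, n = 4) with overlapping arrays. ME1, the cytosolic malic enzyme, was almost even in AD32 (9.81 ± 0.05, SD, n = 3) and lay below both A549 disco arrays (mean 10.37, log2 difference -0.56, SE 0.14, limma adjusted p = 0.0633). ME1 was called lower than in A549 disco without A549 DMSO replicate 1 (adjusted p = 0.0304), an array outside that comparison that enters its pooled spread.

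HMOX1, which degrades haem, averaged 7.81 ± 0.61 (SD, n = 3) in AD32 and 7.84 ± 0.34 (SD, n = 4) in A549 DMSO, and FTL, the ferritin light chain, 11.73 ± 0.54 (SD, n = 3) and 12.14 ± 0.35 (SD, n = 4). Both overlapped, and neither was called in any comparison.

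CYP4F11, a fatty acid and vitamin K hydroxylase of the cytochrome P450 family, had the largest mean difference from A549 DMSO among the 33 genes after AKR1B10. It was at 9.65 in AD32 4E-BP1, at 7.47, 6.61 and 8.90 in AD32, at 9.69 and 9.63 in A549 disco, and at 9.72, 9.59, 9.16 and 9.07 in A549 DMSO. All AD32 arrays were below all others, replicate 3 by the least. The difference of CYP4F11 from A549 DMSO was -1.73 (3.31-fold lower, SE 0.45, limma adjusted p = 0.0591) and was called without AD32 replicate 3 (5.09-fold lower, adjusted p = 0.00148). UGDH, which makes the glucuronic acid donor, had an AD32 mean of 11.80 ± 0.28 (SD, n = 3) against 12.34 ± 0.14 (SD, n = 4). Its arrays did not overlap, and it was not called (limma adjusted p = 0.0817). UGDH was called lower without AD32 replicate 3 (log2 difference -0.68, limma adjusted p = 0.0285) and with array weights (-0.67, adjusted p = 0.00711).

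CES1, a carboxylesterase that hydrolyses drugs and esters, was set apart by 1 control array. It was at 7.49 in AD32 4E-BP1, at 8.63, 7.52 and 7.35 in AD32, at 8.04 and 8.70 in A549 disco, and at 9.40, 6.39, 6.74 and 6.65 in A549 DMSO. Replicate 1 was the highest of the 10 arrays and the other DMSO arrays were the 3 lowest. CES1 was not called against A549 DMSO in AD32 or in A549 disco (limma adjusted p = 0.774 and 0.693). Without A549 DMSO replicate 1 it was called higher in both, 2.36-fold (adjusted p = 0.0451) and 3.42-fold (adjusted p = 0.042). OSGIN1, an oxidative stress gene linked to growth inhibition, and TRIM16, a tripartite motif protein, overlapped between AD32 and A549 DMSO with mean log2 differences of -0.22 and -0.36.

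The spread within AD32 was wider for these genes than for genes in general. The 33 genes were also brighter, with a median of mean levels of 10.7 against 6.9 over all genes. The shares of all genes given here were not matched for level. The range over the 3 AD32 arrays had a median of 0.88 across the 33 genes, against 0.45 over all genes, and exceeded 1 on the log2 scale in 15 of them (45.5%, against 12.5% of all genes). Over the 4 A549 DMSO arrays the medians were 0.45 and 0.50. AD32 replicate 3 was the highest of the AD32 arrays for 28 of the 33 genes (84.8%, against 31.5% of all genes), and replicate 2 was the lowest for 23 (69.7%, against 31.5%). Replicate 3 was at least 2-fold above replicate 2 for 11 genes (33.3%, against 4.70% of all genes) and at least 2-fold below it for 0. The widest ranges were those of AKR1B10 (9.98-fold between its highest and lowest AD32 array), GPX2 (5.45-fold) and CYP4F11 (4.90-fold). Replicate 3 was the lowest AD32 array for ALDH3A2 and CES1 alone.

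Per array, the mean level of the 33 genes was 10.70 in AD32 4E-BP1, 10.18, 9.86 and 10.70 in AD32, 10.89 and 10.94 in A549 disco, and 10.70, 10.79, 10.71 and 10.70 in A549 DMSO. The mean on AD32 replicate 3 thus lay at the level of A549 DMSO. The G2/M mean also separated AD32 replicate 3 from replicates 1 and 2. A549 DMSO replicate 1 and both A549 disco arrays had G2/M means of 6.67 to 6.87 with NRF2 means of 10.70 to 10.94. A549 DMSO replicate 1 was nevertheless the lowest DMSO array for 19 of the 33 genes, while it held the highest levels of CES1 and GPX2 in its group. Within AD32 the lowest G2/M mean (5.28) was on replicate 1 and the lowest NRF2 mean (9.86) on replicate 2. Of the markers, LAMP3, a gene of alveolar type II cells and dendritic cells, was at 9.17 and 9.56 on AD32 replicates 1 and 2 and at 5.62 to 7.34 on all other arrays. The 7 alveolar markers, LAMP3 included, averaged 6.73 and 6.66 on those 2 arrays and 5.87 to 6.48 on the others. Apart from LAMP3, only SFTPD lay higher on both (6.85 and 6.61) than on all others (6.27 to 6.52). The rest overlapped, among them ABCA3, at 7.92 and 7.93 against 7.02 to 8.62. NKX2-1 was at 4.58 to 5.11 over the 10 arrays. The part of the G2/M and LAMP3 differences in the AD32 results was not tested.

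**Figure D3:**
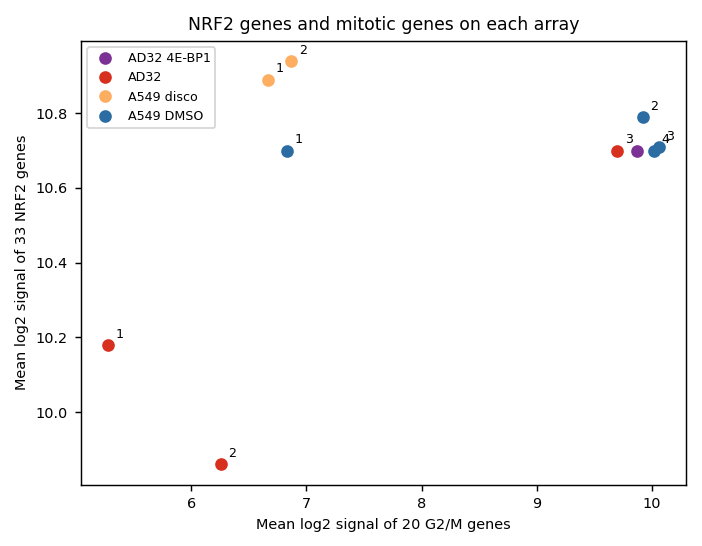
Each point is an array, with the mean log2 signal of 20 G2/M genes on the horizontal axis and of the 33 NRF2 genes on the vertical axis, coloured by group and numbered by replicate. AD32 replicates 1 and 2 stand alone at NRF2 means of 10.18 and 9.86, and every other array lies between 10.70 and 10.94.

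Without AD32 replicate 3, the comparison of AD32 with A549 DMSO called 14 of the 33 genes lower and 0 higher, while the share of all genes called was 10.8%. Without A549 DMSO replicate 1 it called 6 lower and 1 higher, with 11.8% of all genes called. Without AD32 replicate 1 only ALDH1A1 was called (3.12% of all genes). Without AD32 replicate 2, ALDH1A1 was called lower and ALDH3A1 higher (2.86%). Leaving out A549 DMSO replicate 2, 3 or 4 also left ALDH1A1 alone (4.08%, 2.9% and 2.8%). With all arrays the share of all genes called was 5.72%.

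AD32 was compared with A549 in the same concentration of drug to set resistant against senescent cells. The mean was lower in AD32 for 30 of the 33 genes, with a median log2 difference of -0.56 where all genes had 0.01. This comparison shares the AD32 arrays with the one before. The test called 2 lower, ALDH1A1 and EPHX1, and 0 higher (6.06%, against 3.74% of all genes called, 2.46% lower and 1.28% higher). All AD32 arrays lay below both A549 disco arrays for 15 of the 33 genes (45.5%), against 18.0% of all genes. Besides the 2 called genes, SLC7A11 (log2 difference -1.03, SE 0.24, limma adjusted p = 0.0535), AKR1B10 (-2.59, SE 0.75, adjusted p = 0.106) and CYP4F11 (-2.0, SE 0.54, adjusted p = 0.0851) were among them. Without AD32 replicate 3, limma called all 3 lower, SLC7A11 by 2.20-fold (adjusted p = 0.0405), AKR1B10 by 11-fold (0.00316) and CYP4F11 by 6.15-fold (0.00247). SLC7A11 was also called without AD32 replicate 2 (0.0462) or A549 DMSO replicate 1 (0.0436), and GSR without AD32 replicate 3 (0.0461). The count of genes called lower was 9 when AD32 replicate 3 was left out, with 5.92% of all genes called, and 4 when A549 DMSO replicate 1 was, with 6.65%. It was 0 with A549 disco replicate 1 left out (1.02% of all genes) and 1 with replicate 2 left out (0.722%).

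**Figure D4:**
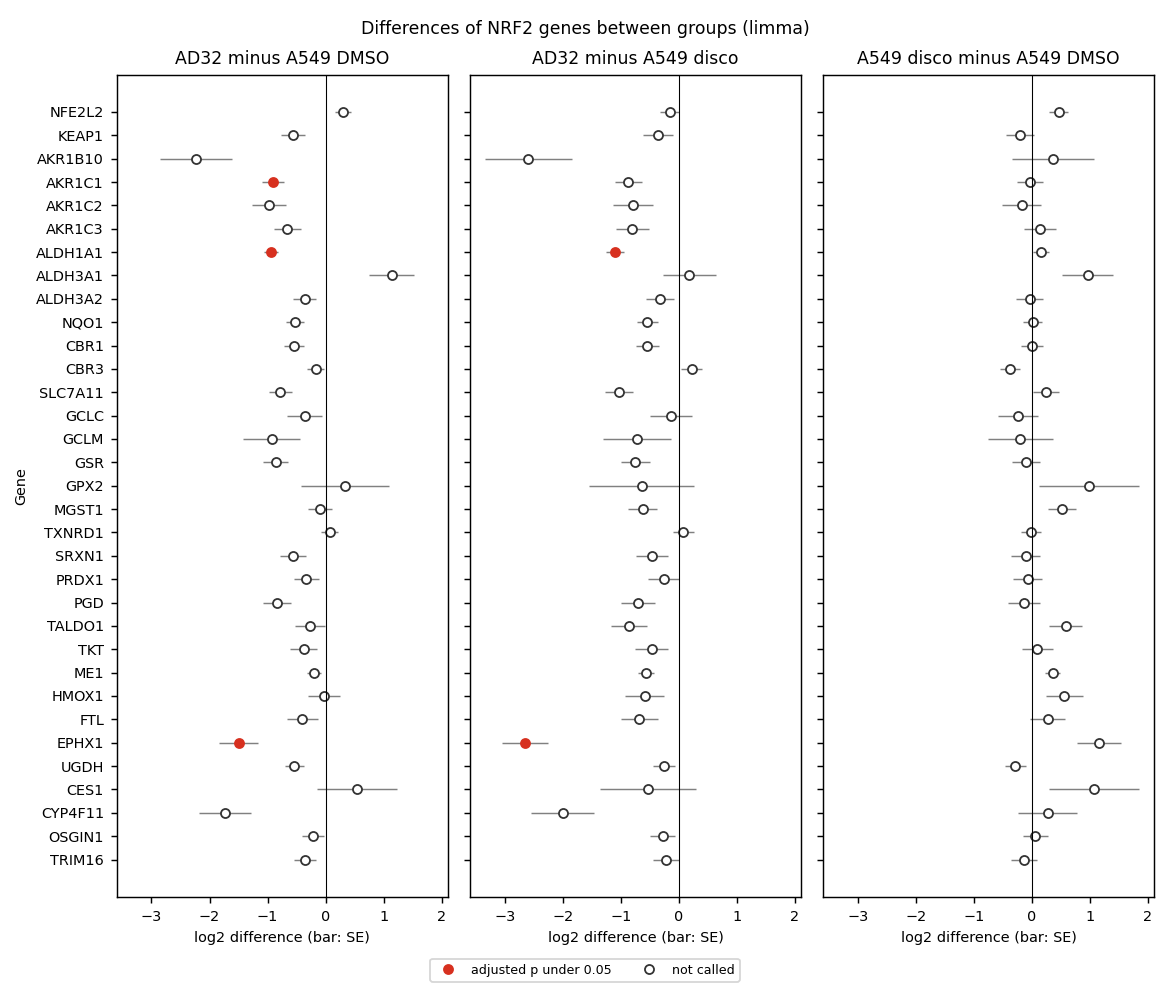
Log2 differences from limma for the 33 genes, with bars of 1 SE on each side, for AD32 against A549 DMSO, AD32 against A549 disco, and A549 disco against A549 DMSO. Filled points mark the calls, ALDH1A1, EPHX1 and AKR1C1 on the left and ALDH1A1 and EPHX1 in the middle, and the right panel has none.

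Discodermolide treatment of A549 called 0 of the 33 genes by limma, against 0.372% of all genes, 0.350% higher and 0.0219% lower. Their median log2 difference was 0.06, against 0.02 over all genes, with 19 higher and 14 lower, and limma gave an unadjusted p under 0.05 for 3 of them (9.09%, against 11.1% of all genes). Those were EPHX1, NFE2L2 and ME1, each with both treated arrays above all DMSO arrays. In all, both treated arrays lay above all DMSO arrays for 9 genes (27.3%, against 15.2% of all genes) and below them for 2, CBR3 and UGDH (6.06%, against 7.71%). Array weights called 9 higher and 1 lower, with 25% of all genes called. They gave A549 DMSO replicate 1 a weight of 0.18, the lowest of the 10. The nearly identical A549 DMSO replicates 3 and 4 had the highest, 2.92 and 4.64.

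The AD32 4E-BP1 array was next set against AD32, with the lone array assumed to vary like the other groups. Those groups did not vary alike. The median range of the 33 genes was 0.88 over the 3 AD32 arrays, 0.45 over the 4 A549 DMSO arrays and 0.14 over the 2 A549 disco arrays. AD32 4E-BP1 was higher than the AD32 mean for 27 of the 33 genes, with a median log2 difference of 0.35, against -0.03 over all genes. None was called, against 0.919% of all genes, 0.339% higher and 0.580% lower. Limma gave an unadjusted p under 0.05 for 5 of 33, all higher, against 9.46% of all genes. These were ALDH1A1 (log2 difference 0.82, SE 0.19, limma adjusted p = 0.125), EPHX1 (1.82, SE 0.50, adjusted p = 0.207), CYP4F11 (1.99, SE 0.68, adjusted p = 0.342), AKR1C1 (0.81, SE 0.29, adjusted p = 0.395) and AKR1B10 (2.23, SE 0.94, adjusted p = 0.505). The array lay above all 3 AD32 arrays for 15 genes (45.5%, against 23.9% of all genes), including all 4 aldo-keto reductases, and below them for 1, TXNRD1 (3.03%, against 27.7%).

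AD32 replicate 3 was the AD32 array nearest to AD32 4E-BP1 in the mean of the 33 genes. Leaving it out therefore widens the gap by the choice of array, and the result is no separate evidence of a difference. Without AD32 replicate 3, the lone array was above the AD32 mean by 8.53-fold for AKR1B10 and 6.12-fold for CYP4F11. For EPHX1 and AKR1C1 the folds were 4.55 and 2.05. Against A549 DMSO the lone array called 0 of 33 genes, and 0 had an unadjusted p under 0.05 by limma, while 0.00% of all genes were called and 1.14% had such a p. It lay within the range of the 4 A549 DMSO arrays for 22 of the 33 genes (66.7%, against 69.0% of all genes), and nearer to their mean than to the AD32 mean for 29 (87.9%, against 65.2%).

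Other genes of the pathway, a list of 94 of which 87 were measured, had a lower mean in AD32 than in A549 DMSO for 51 of 87, with a median log2 difference of -0.17. The test called 4 lower and 1 higher, which is 5.75% of the list and close to the 5.72% of all genes. PRDX3, the mitochondrial peroxiredoxin, fell 2.39-fold (limma adjusted p = 0.0212), PTGR1, an NADPH-dependent alkenal reductase, 1.80-fold (0.0318), EPHX2, the soluble epoxide hydrolase, 2.31-fold (0.00502) and SLC6A6, the taurine transporter, 2.78-fold (0.0127). GSK3B, a kinase that marks NRF2 for degradation apart from KEAP1, rose 1.59-fold (limma adjusted p = 0.0188). None of the 21 measured glutathione transferases and glutathione enzymes in that list was called, and 4 had an unadjusted p under 0.05 by limma, against 19.7% of all genes. The calls were not spread evenly over the list. Among its 26 measured genes for other reductases, conjugation and export, 21 had a lower mean in AD32 and 5 a higher one (median log2 difference -0.39). PTGR1, EPHX2 and SLC6A6 belong to that group, of which 11.5% were called. By limma, 14 of the 26 had an unadjusted p under 0.05, 12 of them lower.

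Against A549 disco, AD32 had 4 of these 87 genes called lower and 0 higher (4.60%, against 3.74% of all genes), with a median of -0.27. CAT, catalase, was 4.22-fold lower (limma adjusted p = 0.0138), EPHX2 3.24-fold (0.003), PTGR1 2.64-fold (0.0108) and UGP2, which makes UDP-glucose for UGDH, 1.72-fold (0.0475). In A549 disco against A549 DMSO the list had 1 call (1.15%, against 0.372% of all genes), SLC40A1, which encodes the iron exporter ferroportin and rose 3.43-fold (limma adjusted p = 0.0296). The lone AD32 4E-BP1 array was above the AD32 mean for 49 of the 87 and below it for 38. The median log2 difference was 0.02, against -0.03 over all genes.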

How the data were processed

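Per the submitters' processing notes, the authors made the deposited values with Affymetrix Expression Console. No source used here gives its version or how signals were summarised and normalized. The range of the deposited values (array medians 6.50 to 6.63) fits log2 signals, and no detection call came with them. The number of arrays limits the precision.

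The platform annotation gave 1 gene to 19262 of 24308 probe sets and several to 1720, and the latter were not used. Groups came from the labels. Limma 3.58.1 in R 4.3.3 (lmFit, eBayes) was fitted to all 10 arrays with 1 residual spread (6 degrees of freedom), two-sided, and was tested on simulated data. The simulated noise was independent between arrays, so that test does not cover near-identical arrays such as A549 DMSO replicates 3 and 4. Tables were made with Python 3.11.15. The members, gene lists and tests were chosen with earlier results of these data known. Genes given in full were those called between groups of at least 2 arrays, NFE2L2, KEAP1, NQO1 and the 10 with the widest range within AD32. Other pathway genes were named where called. The alternatives were a further normalization, median centring, a filter on low genes, array weights, 2-group fits, the mean of probe sets, a replicate block, averaging of A549 DMSO replicates 3 and 4, and each replicate left out.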

Additional observations from a re-analysis of the deposited data

Results flagged for a closer look

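In A549 DMSO, 8 of the 33 genes had 1 array far from the other 3 by Dixon's ratio of the gap to the range, and in 7 of them it was replicate 1. Chance gives such a result for about 1 in 20 groups, and it was seen for 13.7% of all genes here. Replicate 1 also stood apart over all genes, as the highest DMSO array for 41.5% of them and the lowest for 35.2%. Its differences from the other 3 arrays had SDs of 0.66 to 0.70 across genes, against 0.16 to 0.31 among those 3. How often replicate 1 was the far array over all genes was not counted, so the 7 are not particular to these genes. Replicate 1 was the low array for AKR1B10 (ratio 0.906, 11.71 against 12.37 to 12.44), GCLM (0.918, 7.85 against 9.49 to 9.63), PRDX1 (0.928, 11.64 against 12.19 to 12.23), ME1 (0.912, 9.83 against 10.06 to 10.09), FTL (0.857, 11.62 against 12.24 to 12.35) and TRIM16 (0.85, 9.95 against 10.42 to 10.50). It was the high array for CES1 (0.883, 9.40 against 6.39 to 6.74). For ALDH1A1 replicate 2 was the low array (0.908, 13.33 against 13.54 to 13.56). In each of these genes replicates 3 and 4, which were nearly identical, lay among the other 3 arrays.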

How the results depend on the processing

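For AD32 against A549 DMSO (3 called) the count of called genes was 5 with the dimmest 1 in 3 genes left out (7.6% of all genes called), 21 with array weights (23.1%), and 1 with only the 2 groups fitted (4.05%) or with A549 DMSO replicates 3 and 4 averaged (2.87%). Array weights gave 10 for A549 disco against A549 DMSO (25% of all genes), 15 for AD32 against A549 disco (10.2%) and 5 for AD32 4E-BP1 against AD32 (7.01%). These weights were highest for the nearly identical A549 DMSO replicates 3 and 4, at 2.92 and 4.64. With 1 AD32 or A549 DMSO replicate left out, AD32 against A549 DMSO had 1 to 14 calls (2.8% to 11.8% of all genes). A549 disco against A549 DMSO had 0 to 1 (0.0656% to 3.52%), and AD32 against A549 disco 2 to 9 (2.25% to 6.65%). Among these fits, AD32 4E-BP1 gained calls against AD32 only without AD32 replicate 3. That is the AD32 array nearest to it in the mean of the 33 genes. The lone array had no calls against A549 DMSO. A further quantile normalization, median centring and the mean of probe sets kept every count within 1.5 times, and both scalings shifted the median of all genes by at most 0.06. The replicate block gave 2, 0 and 3 called genes for AD32 against A549 DMSO, A549 disco against A549 DMSO and AD32 against A549 disco, with 3.56%, 0.0219% and 2.99% of all genes. By limma it ended the EPHX1 call against A549 DMSO (adjusted p = 0.0769) and gained that of AKR1C1 against A549 disco (0.0497). No paired analysis was possible for AD32 4E-BP1 because its lone array carries no number. Whether the numbers pair the samples is not known. Deviations from the group mean correlated at 0.68, -0.26 and 0.41 between same-numbered AD32 and A549 DMSO arrays. Between arrays of other numbers they correlated at -0.61 to 0.53. Such deviations balance out within each small group, so these values cannot decide the question. Over 2739 values of the 33 genes in the 5 comparisons under the alternatives, 22 lost a call, 85 gained one and 0 reversed. Of the gains, 46 came with array weights and 22 without AD32 replicate 3. The causes were not tested.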

Other observations

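Within A549 DMSO, replicate 1 was the lowest of the 4 arrays for 19 of the 33 genes (57.6%, against 35.2% of all genes) and the highest for 8 (24.2%, against 41.5%). Its mean over the 33 genes, 10.70, equalled that of replicate 4. The mean of the 4 aldo-keto reductases was 12.54 on that array, against 12.94, 13.06 and 13.08 on the other DMSO arrays. By the same measure, AD32 4E-BP1 had aldo-keto reductases at 12.89, against 11.60, 10.97 and 12.57 in AD32.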
